A study of Mus musculus with 2 samples.

Results

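Border-associated macrophages are the resident macrophages of the meninges, perivascular spaces and choroid plexus. They lie outside the brain tissue proper that microglia occupy, they take up material from blood and cerebrospinal fluid through scavenger and lectin receptors, and some of them carry MHC class II for presenting antigen to T cells. Here they were 83 of 18754 cell barcodes in single-cell RNA libraries of mouse hippocampus. Of these, 72 came from library 2, which held 6448 barcodes, and 11 from library 1, which held 12306. They were chosen by their unique molecular identifiers (UMIs, each standing for 1 captured mRNA molecule) and by no clustering. Members carried no fewer than 1000 UMIs and 500 detected genes, with mitochondrial UMIs no higher than 20%. The 6 border macrophage markers Mrc1, Pf4, Ms4a7, Cbr2, F13a1 and Lyve1 together gave each member at least 4 UMIs from at least 2 genes and at least 0.1% of its UMIs. Each also had at least 2 UMIs of the 4 macrophage genes Csf1r, C1qa, C1qb and Tyrobp, and the 3 microglia genes P2ry12, Tmem119 and Siglech together gave each under 0.1% of its UMIs.

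The study compared ways of freeing brain cells, and all its tissue was hippocampus from male wild-type C57BL/6 mice 10 weeks old, with tissue of 3 mice pooled for each library. The methods were an enzymatic digestion for 30 minutes at 37 °C and a mechanical dissociation at 4 °C, both followed by removal of myelin and debris on a Percoll gradient. The labels do not tie either library to a method, so the libraries were not compared as groups, and with 1 pool each there is no replicate and no test. The main comparison is therefore between cell types inside library 2, where the 72 members were set against 1951 microglia. The microglia passed the same depth and macrophage limits, with the 3 microglia genes at 0.1% or more of UMIs and the 6 border markers under 0.1%. Levels are UMIs summed over the cells of a class, per 1000000 UMIs of that class (CPM). The 95% intervals are exact and cover counting error only, not variation among cells, mice or preparations.

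The libraries stood apart in depth and in mitochondrial share. The median over all barcodes was 1600.5 UMIs and 13.3% mitochondrial UMIs in library 2, and 1256 UMIs and 1.76% in library 1. The 72 members of library 2 had a median of 5954.5 UMIs (1016 to 24692) and 2271.5 genes, and the microglia beside them a median of 6130 UMIs. Mitochondrial UMIs made up a median of 8.78% in the members, 34 of which were above 10%, against 5.49% in the microglia, 379 of which were above 10%. The 11 members of library 1 had a median of 2514 UMIs (1015 to 3162), so that 1 UMI in their sum equals 41.3 CPM, against 1.88 CPM for the 72 members. Of the barcodes passing the depth, gene and mitochondrial limits, members made up 2.42% of 2973 in library 2 (95% Clopper-Pearson interval 1.90 to 3.04%) and 0.146% of 7544 in library 1 (0.0728 to 0.261%). The libraries shared 19 barcode sequences, of which 1 belonged to a member in library 2 and 0 to a member in library 1.

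The markers used in the choice are given as a description. Mrc1, a mannose receptor for endocytosis, stood at 2614 CPM in the members of library 2, against 8.19 CPM in microglia, and 69 of the 72 members held a UMI of it. Pf4, a platelet-type chemokine, stood at 2220 CPM in members, against 1.65 CPM in microglia, with a UMI in 67 members. F13a1, a transglutaminase chain, was found in 57 members, Ms4a7 in 65, Cbr2, a carbonyl reductase, in 50, and Lyve1, a hyaluronan receptor, in 30. After thinning each cell to 1000 UMIs, Mrc1 was detected in 76.4% of members, 0.564% of microglia and 0% of the 250 endothelial cells of library 2, which had a median of 6640.5 UMIs. The unthinned shares for Mrc1 were 95.8% of members, 3.90% of microglia and 1.20% of endothelial cells. The microglia and the endothelial cells were chosen with the border markers, Mrc1 among them, under 0.1% of UMIs. Their low Mrc1 shares are therefore largely built in and are not an independent control. The macrophage genes of the rule were present in both classes: C1qa, a chain of complement C1q, had 6232 CPM in members and 8667 CPM in microglia, and Csf1r, the receptor for the survival factor CSF1, had 1759 CPM in members and 3460 CPM in microglia. P2ry12, a purine receptor of microglia, had 116 CPM in members and 3006 CPM in microglia.

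Near the limits the border was gradual. In library 2, 7 barcodes failed the marker share alone, the nearest at 0.0986% against 0.111% for the lowest member. A further 10 failed the microglia limit alone, with 0.102 to 0.318% against at most 0.0972% in members, and 5 failed the mitochondrial limit alone, with 20.9 to 30.3% against at most 18.8% in members. Markers of other cell types were low in most members. In 12 of 72 members and 328 of 1951 microglia the 6-gene list of some other cell type (5 genes for erythrocytes) reached 0.5% of UMIs. Of the 12 members, 8 reached it for choroid plexus genes, 2 for leptomeningeal fibroblast, 1 for endothelial and 1 for monocyte genes. The choroid plexus list summed to 1692 CPM in members and 2329 CPM in microglia, mostly Ttr, the transthyretin gene, which had a UMI in all 72 members. The T and NK cell list was at 0 in all its 6 genes in members, as were the dendritic cell genes Xcr1, Itgae and Ccr7 and the monocyte genes Chil3 and Hp. No doublet caller was run.

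**Figure D1:**
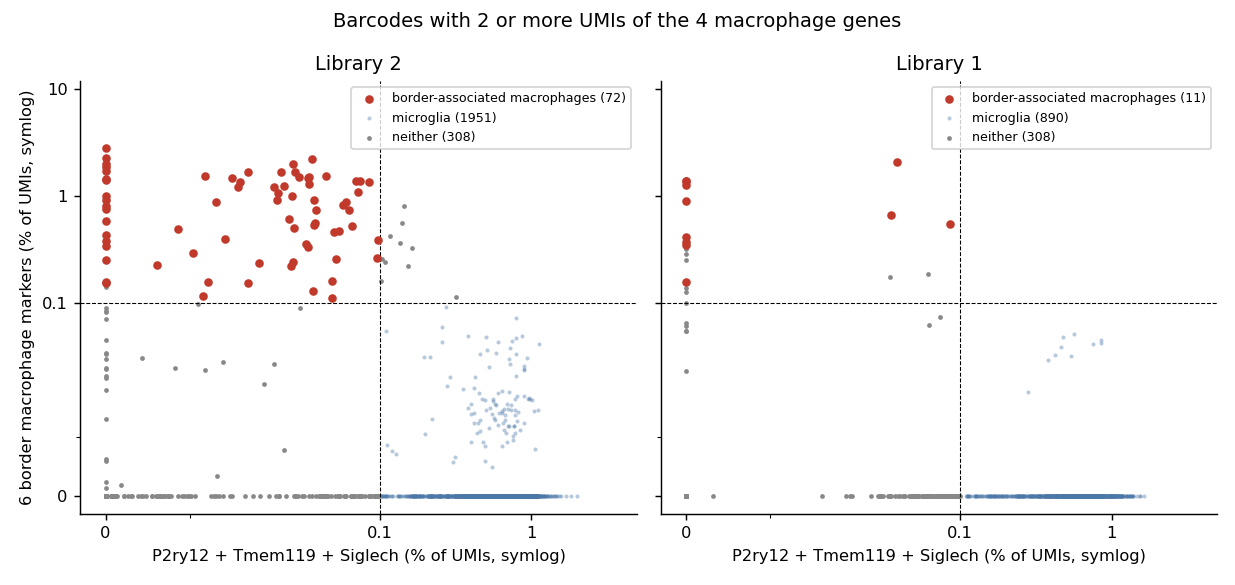
Share of each barcode's UMIs from the 6 border macrophage markers (vertical, percent, linear near 0 and log above) against the share from the 3 microglia genes (horizontal, same scale), for barcodes with at least 2 UMIs of the 4 macrophage genes in library 2 (left) and library 1 (right). Dashed lines mark 0.1% on each axis; red points are the 72 and 11 members, blue points the 1951 and 890 microglia, and grey points met neither rule.

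Across all genes of library 2, 3735 reached 50 CPM in members or microglia and 20 UMIs in both together, leaving out the 13 genes of the rule. With 10 CPM added to each class, 345 of them were at least 2-fold higher in members (9.24%) and 468 at least 2-fold lower (12.5%), and the median log2 ratio was -0.07. These shares are the background for the counts of each gene group below, and passing 2-fold here has no replicate check. A gene could reach 50 CPM through either class alone. Its direction is then partly built in, in the background as in each group. Fold values of single genes are plain ratios of CPM with their exact counting interval.

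Scavenger, endocytic and lectin receptors were higher in members. The 26 genes of this group summed to 7006 CPM in members and 1355 CPM in microglia, a ratio of 5.17 (4.99 to 5.36). Of the 19 that reached the minimum, 17 were at least 2-fold higher and 2 at least 2-fold lower, and their median log2 ratio was 3.64 (3.76 with genes at 0 in microglia set to their bound). Cd163, Clec10a, Clec4n, Cd209f, Folr2, Cd36 and Axl were among those that reached 50 CPM only in members. The direction of such genes is partly built in by the minimum, and the count and median above include them. Stab1, Lrp1 and Mertk reached it in both classes, with Stab1 higher in members and Lrp1 and Mertk lower. Stab1, stabilin-1, which clears modified lipoproteins and hyaluronan, had 2111 CPM in members and 251 CPM in microglia, 8.42-fold higher (7.86 to 9.02). Its level per member had a median of 2174 CPM, with a UMI in 67 of 72. Dab2, an adaptor of clathrin-mediated uptake, had 1284 CPM in members and 17.0 CPM in microglia. Cd163, the receptor for haptoglobin-bound haemoglobin, had 680 CPM in members, from 48 of the 72, and 0.496 CPM in microglia.

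The C-type lectins Clec10a, which binds galactose and N-acetylgalactosamine sugars, and Clec4n (dectin-2), which binds fungal mannans, stood at 314 and 147 CPM in members and 0.0827 CPM each in microglia, where each had 1 UMI. Cd209f, of the same superfamily, had 118 UMIs in 20 members and 0 in microglia, at least 893-fold higher when microglia are set to 3 UMIs over the class. Folr2, a folate receptor, had 208 CPM in members, from 31 of the 72, and 0.579 CPM in microglia. Lrp1, a large endocytic receptor, ran the other way with 169 CPM in members and 350 CPM in microglia, and so did Mertk, a receptor tyrosine kinase for dying cells, with 115 CPM in members and 527 CPM in microglia. Axl, the relative of Mertk, had 156 CPM in members and 6.04 CPM in microglia. Gas6, a ligand of both receptors, had 631 CPM in members and 117 CPM in microglia. Marco had 0 UMIs in members, and Stab2 had 0 UMIs in members as well. Cd209, Clec4a and Ms4a6 genes are families of near copies, as are the MHC class I, haemoglobin and Hspa1 genes. Reads that fit more than 1 gene of a family may be miscounted or lost, so levels of single genes there are less certain.

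The iron and haem group summed to 12168 CPM in members and 5199 CPM in microglia, with 5 of 8 tested genes at least 2-fold higher and 0 lower. The ferritin chains Fth1 and Ftl1, which store iron, were 2.70-fold (2.61 to 2.80) and 2.69-fold (2.58 to 2.80) higher in members, and each had a UMI in all 72. Blvrb, a biliverdin reductase, had 355 CPM in members and 55.7 CPM in microglia, and Hmox1, which opens the haem ring, had 146 CPM in members and 54.2 CPM in microglia. The iron exporter Slc40a1 (ferroportin) had 145 CPM in members and 126 CPM in microglia, and Slc11a1, an iron and manganese transporter of phagosomes, had 122 CPM in members and 123 CPM in microglia.

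Apoe, which carries cholesterol in lipoproteins, carried most of the lipid group. It had 38320.1 CPM in members and 1152 CPM in microglia, 33.3-fold higher (32.6 to 34.0), and its level per member had a median of 40972 CPM. All 72 members held an Apoe UMI after thinning to 1000 UMIs, against 34.2% of microglia and 64.0% of endothelial cells. Of the 9 tested genes of the group, 4 were higher and 2 lower. Pltp, a phospholipid transfer protein, had 351 CPM in members and 41.4 CPM in microglia, and Cd36, a fatty acid and lipoprotein receptor, had 131 CPM in members and 0.414 CPM in microglia. Trem2, a lipid-sensing receptor, was lower, at 620 CPM in members and 2253 CPM in microglia, and so was Abcg1, a cholesterol exporter, at 28.2 CPM in members and 85.5 CPM in microglia.

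**Figure D2:**
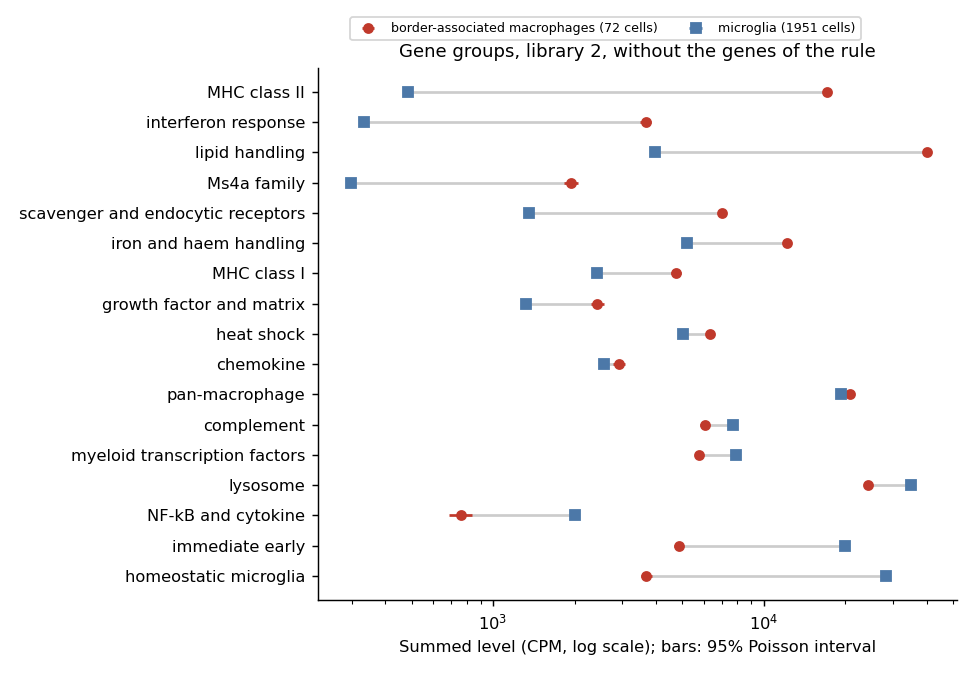
Summed level of 17 gene groups in CPM on a log axis, without the genes of the rule, in the 72 border-associated macrophages (red circles) and the 1951 microglia (blue squares) of library 2, ordered by their ratio. Bars are 95% Poisson intervals; MHC class II stands at 17127 CPM in members and 483 CPM in microglia, and homeostatic microglia genes at 3690 CPM in members and 28236 CPM in microglia.

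Complement and lysosome genes were split. Of 7 tested complement genes outside the rule, 4 were at least 2-fold higher in members and 1 lower. C4b, which the classical and lectin routes share, had 222 CPM in members and 3.97 CPM in microglia, and properdin (Cfp), which stabilises the alternative pathway's convertase, had 124 CPM in members and 1.41 CPM in microglia. The receptors C3ar1 and C5ar1 were 2.59-fold (2.22 to 3.01) and 2.87-fold (2.40 to 3.41) higher in members. Itgam, a chain of complement receptor 3, was the lower gene, with 120 CPM in members and 508 CPM in microglia. Among 18 tested lysosome genes, 2 were higher and 5 lower. Lyz2, lysozyme, had 7844 CPM in members and 291 CPM in microglia, and the protease Ctsc had 1221 CPM in members and 424 CPM in microglia. The proteases Ctsd, Ctss and Ctsl and the legumain gene Lgmn were among the lower genes, and Ctsd had 1010 CPM in members and 6852 CPM in microglia.

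Interferon-response genes were higher in 8 of 8 tested genes, and the other 6 of the 14 did not reach the minimum. The 14 genes summed to 3664 CPM in members and 334 CPM in microglia, a ratio of 11.0 (10.4 to 11.6). Ifi27l2a had 1037 CPM in members and 21.9 CPM in microglia, and the antiviral membrane gene Ifitm3 had 894 CPM in members and 50.4 CPM in microglia. Ifitm3 was higher still in endothelial cells, at 1816 CPM. Bst2 (tetherin), which holds budding viruses at the cell surface, had 759 CPM in members and 135 CPM in microglia. Bst2 and Ifitm3 thus reached 50 CPM in both classes, and Ifi27l2a only in members, so its direction is partly built in. The MHC class I genes H2-D1 and H2-K1, which present peptides to CD8 T cells, were 3.65-fold (3.37 to 3.95) and 3.11-fold (2.83 to 3.41) higher in members, and B2m, their shared light chain, was 1.40-fold higher (1.31 to 1.49). In the class I group 3 of 7 tested genes passed 2-fold upwards and 0 downwards. All 4 tested Ms4a genes, tetraspanning membrane proteins, were higher, and 3 others outside the rule did not reach the minimum. Ms4a6c had 914 CPM in members and 54.6 CPM in microglia.

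Growth factor and matrix genes were at least 2-fold higher in members in 6 of 10 tested genes and at least 2-fold lower in 1. Besides Gas6, Igf1, insulin-like growth factor 1, had 143 CPM in members and 1.57 CPM in microglia, and Tgfbi, an extracellular matrix protein, had 424 CPM in members and 18.1 CPM in microglia. Nrp1, a co-receptor for VEGF and semaphorins, had 359 CPM in members and 97.1 CPM in microglia. Pdgfb was lower, with 69.5 CPM in members and 170 CPM in microglia. Fn1 counts among the higher genes, but 58.3% of its 36 UMIs in members came from 1 cell, and its log2 ratio of 1.69 turned to -0.96 with the marker limit at 0.2%.

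The genes of homeostatic microglia, outside the 3 of the rule, were lower in 12 of 13 and summed to 3690 CPM in members and 28236 CPM in microglia, 7.65-fold lower in members (7.3 to 8.0). The rule kept barcodes with such genes out of the class through 3 relatives, so this direction is partly built in. Sall1, a zinc finger factor of microglial identity, had 0 UMIs in members and 313 CPM in microglia, at least 55.5-fold lower with members set to 3 UMIs over the class. Selplg, a ligand of selectins, had 156 CPM in members and 3156 CPM in microglia, and Cx3cr1, the fractalkine receptor, had 828 CPM in members and 4497 CPM in microglia. Fcrls was the gene that did not pass 2-fold, with 1046 CPM in members and 1618 CPM in microglia. Of 15 tested myeloid transcription factors 1 was higher and 7 lower. Maf had 1913 CPM in members and 901 CPM in microglia, 2.12-fold higher (1.99 to 2.26). Spi1 (PU.1), the myeloid master factor, had 319 CPM in members and 313 CPM in microglia.

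Ranked over all tested genes by the interval bound nearest to 1, the 15 highest in members were Cd209f, Clec10a, Cd163, Clec4n, Mgl2, Aoah, Adam33, Fcna, Folr2, F630028O10Rik, Cybb, Cd209g, Pla2g2d, Gpx3 and H2-Aa. Mgl2, a second galactose-type lectin, had 289 CPM in members and 0.414 CPM in microglia, and Cybb, the catalytic chain of the phagocyte NADPH oxidase, had 661 CPM in members and 3.14 CPM in microglia. Among the 15 lowest were Nav3, Sall1, Slc2a5, Adgrg1, Sparc, Csmd3, Ecscr, Serpine2, St3gal5, Adora3, Lag3, Sgk1, Selplg and Hba-a2. Slc2a5, a fructose transporter, had 1 UMI in members and 335 CPM in microglia, and Sparc, a matricellular protein, had 92.0 CPM in members and 2936 CPM in microglia. Hba-a2 is a haemoglobin gene. The haemoglobin list summed to 269 CPM in members and 4524 CPM in microglia, where 10 barcodes reached 0.5% haemoglobin UMIs and 1 of them 70.0%.

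**Figure D3:**
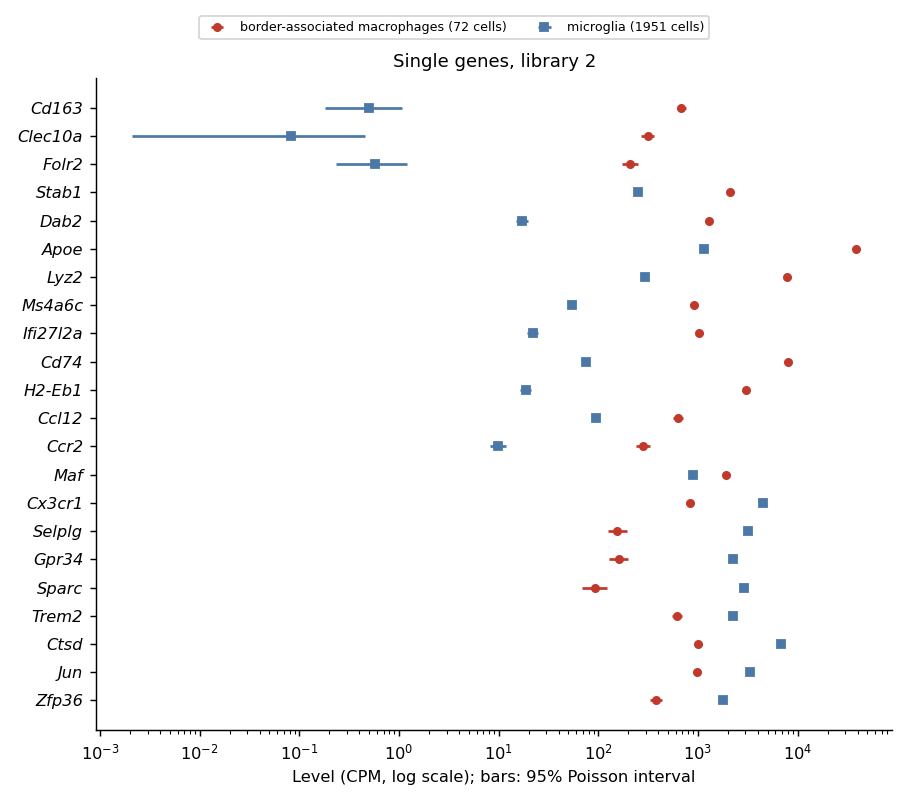
Level of 22 genes in CPM on a log axis in the 72 border-associated macrophages (red circles) and the 1951 microglia (blue squares) of library 2, with 95% Poisson intervals. From Cd163 to Maf the members lie to the right of the microglia, and from Cx3cr1 to Zfp36 to the left.

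MHC class II was unevenly spread over the members. This group showed the highest ratio among the 17 groups, 17127 CPM in members and 483 CPM in microglia, 35.4-fold (34.3 to 36.6), with 5 of 6 tested genes higher, but the sum came from a minority of cells. The heterodimer genes H2-Aa, H2-Ab1 and H2-Eb1 and Cd74, the invariant chain that guards their peptide groove, had no UMI in 37 of 72 members. Together these 4 genes gave under 1000 CPM in 49 members, 1395 to 3849 CPM in 3, and 6803 to 93975 CPM in 20, with a median of 47371 CPM in the 20. The limits of 1000 and 5000 CPM were set after these values were seen, and the 49 and the 20 are called MHC class II-poor and MHC class II-rich below. With the 20 left out, the log2 ratio of the MHC class II group to microglia was -0.56, against 5.15 with them, and the ratios of H2-Eb1 and H2-DMb1 turned to -0.41 and -1.53. The fall of the group and of H2-Eb1 is largely built in, because the 20 were picked by high levels of the 4 genes. H2-DMa and H2-DMb1, which load peptides and were not used for the limits, had 739 and 665 CPM in the rich members, and 34.3 and 24.9 CPM in the poor members. Ciita, the coactivator of class II genes, had 10 UMIs in 7 members and 0 in microglia.

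Class II promoters share a short module of conserved boxes, of which the Y box holds the sequence TGATTGG (reverse complement CCAATCA). The 150 bases before the start of 3 class II genes that were higher in the rich members are shown because H2-Aa and H2-Eb1 are among the 4 genes that define these members and H2-DMb1 is not. They are from RefSeq's table (GRCm38.p6), read along each gene's strand and in lower case, with TGATTGG in capitals. H2-Aa is chr17:34287824-34287973 on the minus strand, H2-Eb1 is chr17:34305717-34305866 on the plus strand and H2-DMb1 is chr17:34153041-34153190 on the plus strand.
H2-Aa: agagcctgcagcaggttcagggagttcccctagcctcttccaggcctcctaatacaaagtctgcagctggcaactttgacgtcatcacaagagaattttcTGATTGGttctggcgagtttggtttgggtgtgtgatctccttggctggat
H2-Eb1: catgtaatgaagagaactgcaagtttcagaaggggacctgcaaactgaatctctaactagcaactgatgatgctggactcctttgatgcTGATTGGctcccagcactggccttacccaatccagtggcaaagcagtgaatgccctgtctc
H2-DMb1: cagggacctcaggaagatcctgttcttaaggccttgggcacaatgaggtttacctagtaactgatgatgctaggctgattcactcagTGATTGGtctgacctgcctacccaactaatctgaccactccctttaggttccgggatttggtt
The motif ended 43 bases before the start in H2-Aa, 54 in H2-Eb1 and 56 in H2-DMb1. Searched on both strands, it was in 6 of the 8 windows of the 7 class II genes in the table, out of 10 in the list, and in 1877 of 32851 windows of this length over all genes (5.71%). The windows without the motif were those of H2-DMa, which was also higher in the rich members. The 6 windows with it include those of H2-Oa and H2-Ob, genes that had 2 UMIs each in the 72 members.

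Several genes outside MHC class II were found in fewer of the rich members. Lyve1, which the rule used, had a UMI in 0 of 20 rich members, with a 95% Clopper-Pearson upper limit of 16.8% on cells with a UMI and not on cells expressing the gene, and in 29 of 49 poor members. After thinning to 1000 UMIs the Lyve1 shares were 0% of the rich and 42.9% of the poor. Folr2 was found in 1 of 20 rich and 29 of 49 poor members, Cd163 in 6 of 20 rich and 39 of 49 poor, and Cd209f in 0 of 20 rich and 19 of 49 poor. Ccl24, a chemoattractant of eosinophils, was found in 0 of 20 rich and 33 of 49 poor members, and Slc40a1 in 0 of 20 rich and 32 of 49 poor. Lyve1 above and the other markers of the rule below are given as a description. Mrc1 was in 18 of 20 rich and 48 of 49 poor members, but at 787 CPM in the rich and 3737 CPM in the poor. Pf4 was in 17 of 20 rich and 48 of 49 poor members, at 521 CPM in the rich and 3242 CPM in the poor. F13a1 was in 9 of 20 rich and 46 of 49 poor members, and Cbr2 in 3 of 20 rich and 45 of 49 poor. Ms4a7 was in 14 of 20 rich and 48 of 49 poor members, but in 70% of the rich and 65.3% of the poor after thinning, at 750.0 CPM in the rich and 885 CPM in the poor. After thinning, Mrc1 was in 50% of the rich and 87.8% of the poor, and Pf4 in 45% of the rich and 85.7% of the poor. The 6 markers of the rule took a median of 0.239% of UMIs in the rich members (0.111 to 0.537%) and 1.23% in the poor (0.158 to 2.86%), so the rich members lie nearer the limit of 0.1%. The rich were the deeper cells, with a median of 8037 UMIs against 5562 UMIs in the poor, and a median of 6.81% mitochondrial UMIs against 11.4% in the poor. The part of depth, mitochondrial share and the marker limit in the results was not tested.

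Ccr2, the receptor that brings monocytes to tissue, had a UMI in 9 of 20 rich and 1 of 49 poor members, with 787 CPM in the rich and 6.23 CPM in the poor. The monocyte list, of which Ccr2 gave 150 of the 238 UMIs in members, summed to 1255 CPM in the rich and 6.23 CPM in the poor, with Chil3 and Hp at 0 and all 79 UMIs of Plac8 from 1 member. Ly6c2, which marks classical monocytes, had 4 UMIs from 1 member. The rich member with the highest monocyte share, 0.518% of UMIs, held 32 Ccr2 UMIs and 2392 CPM of Apoe. Of the rule's markers it held 10 Mrc1 and 25 F13a1 UMIs and 0 of Pf4, Ms4a7, Cbr2 and Lyve1. Cd163, Folr2 and Stab1 were at 0 in it as well. The 6 markers of the rule gave under 0.2% of UMIs in 7 of 20 rich and 1 of 49 poor members. Whether the name border-associated macrophage holds for the members with Ccr2, or for the other rich members, was not tested. Of the dendritic cell genes, Flt3 had 12 UMIs in 9 of 72 members, with 8 of the UMIs in the rich. Cd209a had 16 UMIs in 6 members, all of them poor.

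**Figure D4:**
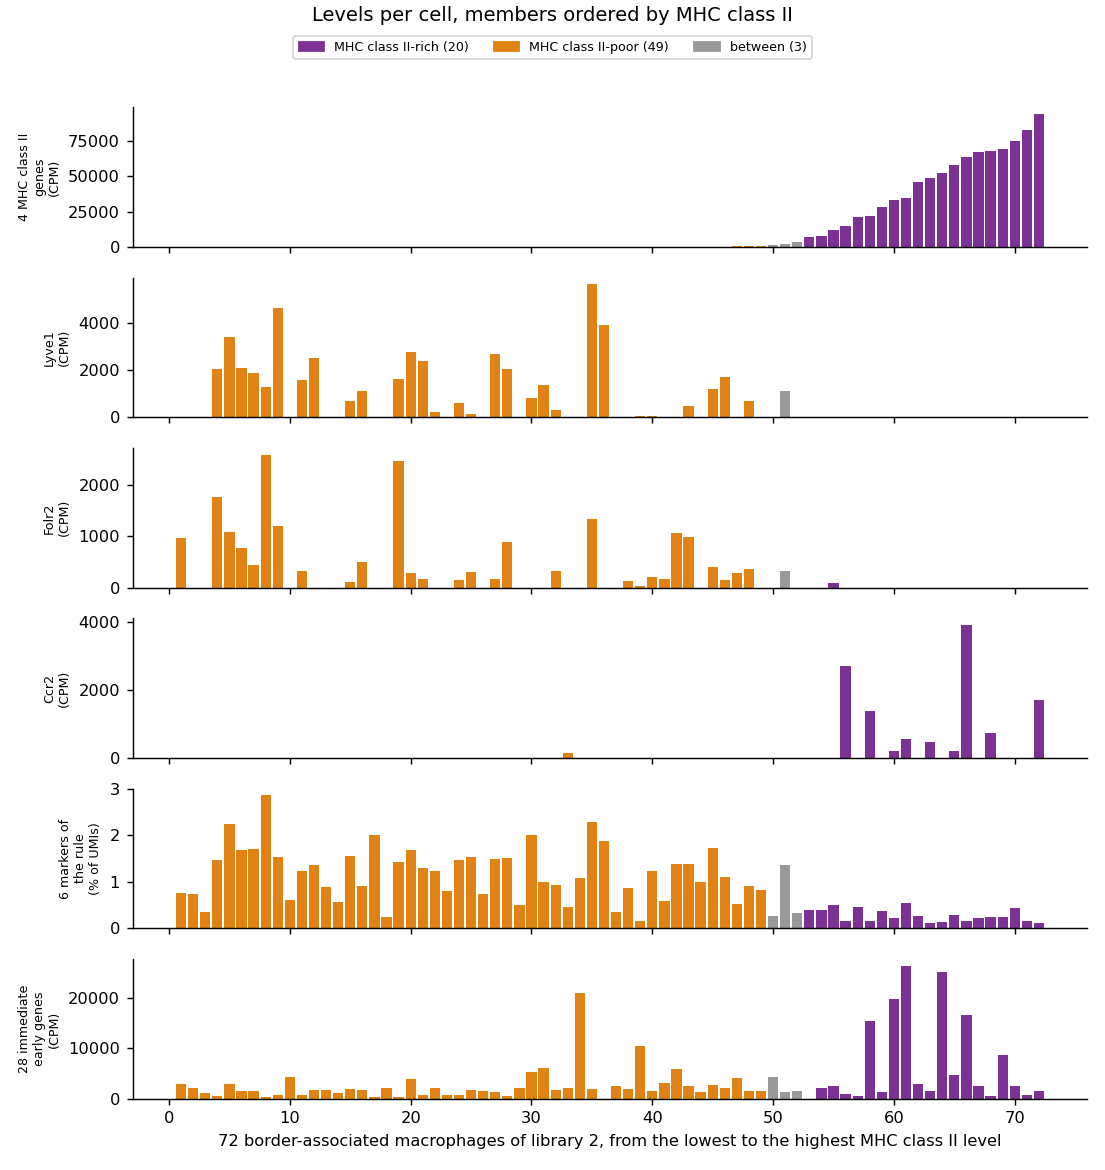
The 72 border-associated macrophages of library 2 side by side, ordered by their summed level of H2-Aa, H2-Ab1, H2-Eb1 and Cd74 (top, CPM), with Lyve1, Folr2 and Ccr2 (CPM), the share of UMIs from the 6 markers of the rule (percent) and the 28 immediate early genes (CPM) in the same cells. Lyve1 was found in 29 and Folr2 in 29 of the 49 poor members (orange), against 0 and 1 of the 20 rich members (purple), and Ccr2 in 9 rich members and 1 poor member, with 3 members between (grey).

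Between rich and poor members 3514 genes were tested, of which 215 (6.12%) were at least 2-fold higher and 645 (18.4%) at least 2-fold lower in the rich, with a median log2 ratio of -0.28. The scavenger group summed to 2851 CPM in the rich and 9547 CPM in the poor, with 14 of 20 tested genes lower and 2 higher. Maf had 952 CPM in the rich and 2522 CPM in the poor, and Gas6 had 128 CPM in the rich and 945 CPM in the poor. Pan-macrophage genes passed 2-fold in 0 of 12. Apoe had 34349.8 CPM in the rich and 39187 CPM in the poor. Genes of other cell types were among the lowest in the rich: the leptomeningeal fibroblast list summed to 21.3 CPM in the rich and 988 CPM in the poor, led by Apod, and the endothelial list to 31.9 CPM in the rich and 785 CPM in the poor, where 1 member gave 92.0% of the Cldn5 UMIs and 96.2% of the Slco1a4 UMIs of all 72 members. Their part in the rich-to-poor differences was not tested.

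Immediate early genes, the first that cells switch on after a stimulus and known to respond to tissue dissociation, were lower in members than in microglia of the same library. The 28 genes summed to 4860 CPM in members and 19993 CPM in microglia, 4.11-fold lower (3.96 to 4.28), with 14 of 18 tested genes at least 2-fold lower and 0 higher. The log2 ratio of the sums was -2.04, and -2.73 without the 20 MHC class II-rich members. Jun had 988 CPM in members and 3311 CPM in microglia, Junb 353 CPM in members and 2690 CPM in microglia, and Egr1 80.8 CPM in members and 977 CPM in microglia. Atf3, a stress-induced repressor, had 24.4 CPM in members and 574 CPM in microglia, and Zfp36, which speeds the decay of cytokine mRNA, had 381 CPM in members and 1768 CPM in microglia. Klf6 had 381 CPM in members and 364 CPM in microglia.

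Per cell, the immediate early sum ran from 0 to 26306 CPM in members, with a median of 1858 CPM, against a median of 5054 CPM in microglia. At 10000 CPM or more were 7 of 72 members (9.72%, 4.00 to 19.0%) and 785 of 1951 microglia (40.2%, 38.1 to 42.5%). Among cells with at most 10% mitochondrial UMIs, 5 of 38 members (13.2%) and 667 of 1572 microglia (42.4%) were that high, and above 10% mitochondrial UMIs 2 of 34 members (5.88%) and 118 of 379 microglia (31.1%). Of the 7 members, 5 were among the 20 rich and 2 among the 49 poor, and the group's sum was 8228 CPM in the rich and 3033 CPM in the poor. The 5 cells gave 81.0% of the group's UMIs in the rich, and the 2 cells gave 36.5% in the poor. Without them the sum was 2445 CPM in the other 15 rich members and 2121 CPM in the other 47 poor members. The median per cell over all 20 and 49 was 2481 CPM in the rich and 1805 CPM in the poor. Of the 5 cells, 4 held Ccr2, with 97 of the 148 Ccr2 UMIs of the rich, and 1 of the 2 poor cells had 0.964% endothelial UMIs. The part of these markers was not tested. Single cells weighed heavily: 1 member gave 72.4% of Fosb UMIs, 82.4% of Socs3 UMIs and 58.1% of Egr1 UMIs.

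**Figure D5:**
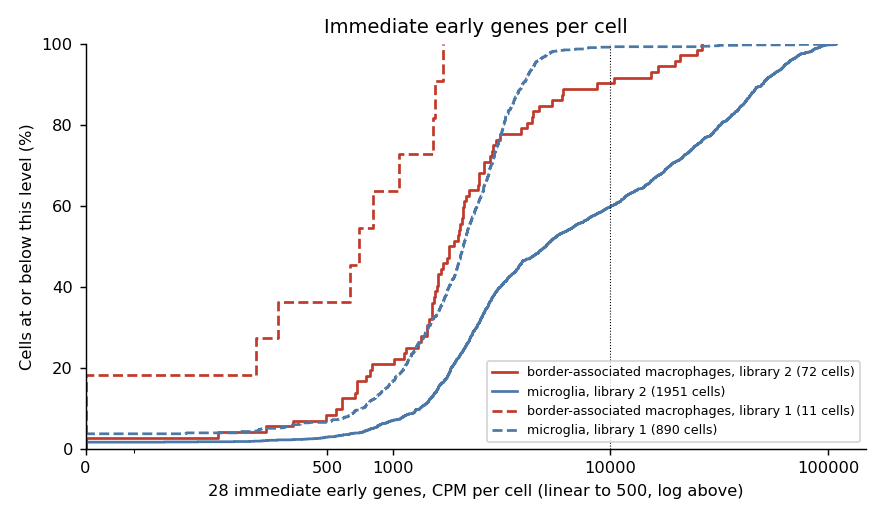
Cumulative share of cells (percent) against the summed level of 28 immediate early genes per cell (CPM, linear to 500 and log above) for border-associated macrophages (red) and microglia (blue) of library 2 (solid) and library 1 (dashed). At the dotted line, 10000 CPM, 9.72% of the 72 members and 40.2% of the 1951 microglia of library 2 lie at or above it.

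NF-kB and cytokine genes were lower in 7 of 11 tested genes and higher in 0, with sums of 761 CPM in members and 2000.4 CPM in microglia. Nfkbia, the inhibitor that NF-kB induces, had 207 CPM in members and 667 CPM in microglia, and Il1a, interleukin 1 alpha, had 1 UMI in members and 128 CPM in microglia. Heat shock genes, which chaperone damaged proteins, passed 2-fold in 0 of 11 in either direction, and Hspa1a had 584 CPM in members and 339 CPM in microglia.

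Chemokine and chemokine receptor genes went both ways, with 7 of 13 tested genes higher and 1 lower. Ccl12 had 633 CPM in members and 94.0 CPM in microglia, and Ccl24 had 173 CPM in members and 8.19 CPM in microglia. Ccl4 had 546 CPM in members and 965 CPM in microglia, Ccl3 278 CPM in members and 533 CPM in microglia, and 1 member gave 59.8% of the members' Ccl4 UMIs and 54.1% of their Ccl3 UMIs. The group sum, 2912 CPM in members and 2573 CPM in microglia, had a log2 ratio of 0.18 that turned to -0.32 with the marker limit at 0.2% and to -0.56 without the MHC class II-rich members, when Ccr2 and Cxcl2 turned to -0.33 and -0.60 as well.

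The 11 members of library 1 are given beside the 890 microglia of that library, in sums only, since 24227 UMIs do not carry single genes far. Scavenger receptors summed to 7842 CPM in members and 1106 CPM in microglia, the lipid group to 46890 CPM in members and 4259 CPM in microglia, and homeostatic microglia genes to 2724 CPM in members and 25966 CPM in microglia. Iron and haem genes summed to 12300.3 CPM in members and 5031 CPM in microglia, and interferon-response genes to 1775 CPM in members and 283 CPM in microglia. Each of these lay on the same side as in library 2. Of the other groups, 3 lay on the other side of 1: pan-macrophage genes had a ratio of 0.931 (0.839 to 1.03) in library 1 and 1.07 in library 2, chemokine genes 0.954 (0.610 to 1.42) in library 1 and 1.13 in library 2, and heat shock genes 0.853 (0.650 to 1.10) in library 1 and 1.26 in library 2. The 4 MHC class II genes had no UMI in 8 of the 11 members, and stood at 1908, 1989 and 20460.4 CPM in the other members. Immediate early genes summed to 867 CPM in members and 2477 CPM in microglia, 2.86-fold lower (1.87 to 4.62), and were at 10000 CPM or more in 0 of 11 members and 7 of 890 microglia. In 5 of the 11 members and 201 of the 890 microglia another cell type's markers reached 0.5% of UMIs, up to 6.41% for neuron genes in 1 member and 5.84% for choroid plexus genes in another. Their part in these sums was not tested.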

How the data were processed

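Single cells of mouse hippocampus were sequenced as 2 droplet libraries (10x Genomics, 3′ chemistry). The deposited matrices hold UMI counts per gene and barcode, made by the authors with Cell Ranger 3.0.1 per the file headers, on genome build GRCm38.p5 per the submitters' processing notes. No source used here states which barcodes were filtered out before deposit. Barcodes were called members or microglia by the limits in the report, UMIs were summed per class, and CPM, exact Poisson and Clopper-Pearson intervals and exact conditional intervals of ratios (95%) were computed in Python 3.11.15 with numpy 2.4.6, scipy 1.17.1 and pandas 2.3.3. Genes needed 50 CPM in either class and 20 UMIs in both together, and a call was a ratio of 2 or more, or 0.5 or less, after adding 10 CPM. Shares of cells with a UMI were also computed after thinning to 1000 UMIs per cell. The 2-fold calls and the ratio intervals were tested on simulated counts of pooled class sums. The choice of cells, the thinning and variation among cells were not part of that simulation. Droplet counts without a replicate allow no test, so no p-value is given, and intervals cover counting error only. Named genes are those of the rule, those of each list that reached the minimum, and the 15 highest and 15 lowest genes; genes named between MHC class II-rich and MHC class II-poor members were chosen after their values were seen. The members and the gene lists were chosen with earlier results of these data known. Some genes that the rule names are not reported here. Alternatives were a 10% mitochondrial limit, other depth limits, a 0.2% marker limit, leaving out barcodes with markers of another cell type, means of per-cell CPM, a pseudocount of 1 CPM, a lower filter and, added after seeing the data, leaving out the MHC class II-rich members.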

Additional observations from a re-analysis of the deposited data

How the results depend on the processing

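Of the 135 named genes past 2-fold between members and microglia, 126 to 135 remained past 2-fold in the same direction under each of 7 alternatives. The 345 higher and 468 lower genes became 663 and 768 when 10 CPM and 5 UMIs were enough, with 9322 genes tested. Members of library 2 numbered 38 at a 10% mitochondrial limit, and those of library 1 numbered 25 with 500 UMIs and 250 genes, 7 with 2000 UMIs and 1000 genes, and 6 without barcodes holding another cell type's markers. The log2 ratio of group sums was 2.37 for scavenger receptors, and 2.11 at the 10% mitochondrial limit, 2.58 at the 0.2% marker limit, 2.56 as a mean per cell and 2.77 without the MHC class II-rich members. For MHC class II it was 5.15, and 5.57, 4.55, 4.93 and -0.56 under those alternatives in that order. The last value is largely built in, because the members left out were picked by their high MHC class II levels. For homeostatic microglia genes it was -2.94, and -2.79 at the 0.2% marker limit and -2.85 without barcodes holding other markers. For immediate early genes it was -2.04, and -1.82 at the 10% mitochondrial limit, -2.47 at the 0.2% marker limit, -2.32 without barcodes holding other markers, -2.15 as a mean per cell and -2.73 without the MHC class II-rich members. Without the MHC class II-rich members Ccr2 turned to -0.33, Cxcl2 to -0.60, H2-DMb1 to -1.53 and H2-Eb1 to -0.41; Fn1 turned to -0.96 at the 0.2% marker limit and to -0.0088 without barcodes holding other markers. The MHC class II-rich members held 148 of the 150 Ccr2 UMIs of members in library 2. For Cxcl2, 1 member held 41 of 66 UMIs, and for Fn1, 1 member held 21 of 36. Of these genes only H2-Eb1 was among the 4 by which the MHC class II-rich members were picked. The cause of the turned ratios was not tested. No paired analysis was possible because each library is 1 pool and the labels give its group no replicate numbers.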

Other observations

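The cycling list (Mki67, Top2a, Cdk1, Birc5, Ube2c and Ccnb2) was carried by few members: all 30 UMIs of Top2a, the topoisomerase that separates replicated DNA, came from 1 MHC class II-poor member of library 2. All 36 UMIs of S100a4 and all 79 UMIs of Plac8 came from 1 MHC class II-rich member. Tslp, the thymic stromal lymphopoietin cytokine, had a UMI in 0 of 20 MHC class II-rich and 23 of 49 MHC class II-poor members, with 86.4 CPM over all members and 3.14 CPM in microglia. Lsp1 and Plbd1 had a UMI in 11 of 20 MHC class II-rich members each, and in 2 and 1 of 49 MHC class II-poor members. These genes were chosen after their values were seen.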
